A study of Mus musculus with 6 samples.

Results

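The genes of antigen presentation by the major histocompatibility complex (MHC) were measured by RNA sequencing in dorsal root ganglia of adult mice, the ganglia beside the spinal cord that hold the cell bodies of sensory neurons and their glia. Members were all gene symbols that begin with H2-, the name of the mouse MHC, together with B2m, Cd74, Tap1, Tap2, Tapbp, Psmb8, Psmb9, Psmb10, Psme1, Psme2, Nlrc5, Ciita, Erap1, Calr and Pdia3. Of 55809 symbols in the files, 60 matched by name, and 43 of these had at least 10 counts in 3 or more pools. All 43 were among the 20146 genes that entered the test.

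The mice were C57BL6J offspring of 8 weeks of age. There were 3 control (CT) pools, from dams left undisturbed, and 3 prenatal stress (PS) pools, whose dams had been held in drilled tubes and lit brightly (30 min at a time, 3 times a day). The protocol label dates this to E13 to E18 and the series design to E13.5 to E18.5, both late gestation. No genotype beyond the strain is labelled, and each library was a pool of 3 mice, so differences between the mice of a pool are not seen. Mice of both sexes went into the experiments, but no label gives the sex, litter or cage behind a pool, so p-values measure the spread between pools. Each pool had 51.7 to 87.4 M gene counts, and levels are given as CPM, gene counts per M counts of the pool after TMM scaling.

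MHC class I molecules are a heavy chain paired with beta-2 microglobulin, and they show peptides from inside the cell to CD8 T cells. The peptides are cut by the proteasome, carried into the endoplasmic reticulum by the Tap1 and Tap2 transporter, trimmed by Erap1 and loaded with the help of tapasin (Tapbp), calreticulin (Calr) and Pdia3. Class II molecules are made mainly by macrophages, dendritic cells and B cells, where Cd74 guards the binding groove and H2-DM exchanges its peptide. Interferons induce most of these genes, in part through the transactivators Nlrc5 for class I and Ciita for class II. In dorsal root ganglia, resident macrophages are a known source of class II transcripts. Most members lie in the H2 region of chromosome 17, B2m lies on chromosome 2, and Psmb10 and Nlrc5 lie on chromosome 8 (GENCODE M21).

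Promoters are printed here for genes on either side of the contrast described below: the classical heavy chains, whose pools overlapped between groups, the light chain, a nonclassical and an immunoproteasome gene, which did not overlap, and a class II gene. Windows from 250 bases before to 50 bases after a start site were available for 31 of the 43 members (RefSeq, build GRCm38.p6), and 12 members had none in the table. They were searched on both strands for 4 motifs: the core of the interferon-stimulated response element (GAAANNGAA), the gamma-activated site (TTCNNNGAA), the kappaB site of class I genes (GGGATTCCC) and the Y box (ATTGG). The sequences run 5′ to 3′ on the strand of the gene, and capitals mark each motif match.
H2-D1 (chr17:35262844-35263143, plus strand): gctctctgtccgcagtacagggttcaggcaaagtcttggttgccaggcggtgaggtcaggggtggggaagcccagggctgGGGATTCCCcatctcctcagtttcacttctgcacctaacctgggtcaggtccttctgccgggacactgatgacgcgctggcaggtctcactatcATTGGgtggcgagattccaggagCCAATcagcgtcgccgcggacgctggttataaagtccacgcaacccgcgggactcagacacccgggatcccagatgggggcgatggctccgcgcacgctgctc
H2-K1 (chr17:34000298-34000597, minus strand): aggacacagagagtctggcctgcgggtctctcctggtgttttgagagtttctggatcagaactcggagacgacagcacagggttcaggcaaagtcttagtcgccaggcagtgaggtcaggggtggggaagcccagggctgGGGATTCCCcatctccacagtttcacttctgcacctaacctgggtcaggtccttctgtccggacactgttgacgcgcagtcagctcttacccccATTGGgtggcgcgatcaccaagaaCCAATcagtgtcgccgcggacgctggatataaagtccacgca
B2m (chr2:122147437-122147736, plus strand): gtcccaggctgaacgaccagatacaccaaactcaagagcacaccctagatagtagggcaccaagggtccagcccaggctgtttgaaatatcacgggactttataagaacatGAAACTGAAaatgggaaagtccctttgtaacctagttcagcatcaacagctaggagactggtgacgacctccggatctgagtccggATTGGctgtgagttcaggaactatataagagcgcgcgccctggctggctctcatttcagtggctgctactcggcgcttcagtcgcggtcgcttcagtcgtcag
H2-T22 (chr17:36042693-36042992, minus strand): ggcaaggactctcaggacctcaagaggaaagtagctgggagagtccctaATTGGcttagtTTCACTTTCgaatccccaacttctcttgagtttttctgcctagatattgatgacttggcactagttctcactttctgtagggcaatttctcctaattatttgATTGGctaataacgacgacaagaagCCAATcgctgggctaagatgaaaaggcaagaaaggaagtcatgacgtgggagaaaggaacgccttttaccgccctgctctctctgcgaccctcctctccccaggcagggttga
Psmb9 (chr17:34187281-34187580, minus strand): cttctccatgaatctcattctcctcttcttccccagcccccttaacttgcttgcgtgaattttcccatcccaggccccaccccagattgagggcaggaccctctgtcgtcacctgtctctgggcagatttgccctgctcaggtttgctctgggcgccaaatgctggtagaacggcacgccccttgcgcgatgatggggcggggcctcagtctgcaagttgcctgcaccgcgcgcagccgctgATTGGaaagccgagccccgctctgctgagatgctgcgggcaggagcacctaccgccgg
H2-Eb1 (chr17:34305617-34305916, plus strand): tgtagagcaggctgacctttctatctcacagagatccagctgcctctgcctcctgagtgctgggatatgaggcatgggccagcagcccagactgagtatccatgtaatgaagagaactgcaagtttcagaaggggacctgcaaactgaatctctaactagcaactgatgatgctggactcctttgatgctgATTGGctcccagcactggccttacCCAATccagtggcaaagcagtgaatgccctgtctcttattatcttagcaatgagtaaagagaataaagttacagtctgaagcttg
In the B2m window the response element core lay at positions -139 to -131 from the start site and the Y box at -53 to -49. The H2-T22 window held the core in reverse at -190 to -182. The windows of H2-K1 and H2-D1 both held the kappaB site, at -110 to -102 and -170 to -162, and neither held the response element core as spelled here. Both held the similar letters TTTCACTTC, which this spelling does not match. The lack of a match therefore does not show that these promoters lack an interferon element. H2-K1 has a second annotated start, whose window overlaps the one printed. The Psmb9 window shares 275 of its bases with that of Tap1, which is read in the other direction, and it held only a Y box. In H2-Eb1 a Y box stood in each direction.

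The response element core was found in 5 of the 31 members with a window (B2m, H2-T22, H2-T23, Erap1 and Psme1), against 8.56% of all 32851 windows. The kappaB letters were found in 4 (H2-K1, H2-D1, H2-Q6 and H2-Q7), against 0.353% of all windows. The Y box was found in 24 members against 37.4% of windows, and the gamma-activated site in 4 (H2-M3, H2-M11, H2-DMb2 and Psmb8) against 8.3%. A member was counted once if any of its windows matched, while the share of all windows counted each window singly. The Y boxes of Tap1 and Psmb9 are the same bases of their shared stretch, counted for both genes. These counts are therefore not shares of independent promoters, and no test was run on them. A match describes letters and not a bound site.

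The single comparison set the 3 stress pools against the 3 control pools and asked which transcripts of the adult ganglion differ between them. No member passed edgeR's quasi-likelihood test with Benjamini-Hochberg adjustment over all genes, where 0.129% of all genes did, and the smallest adjusted p of a member was 0.234. At an unadjusted p under 0.05, 7 members were lower in stress pools (16.3%, against 5.11% of all genes) and 1 was higher (against 6.01%). The replicate number as a block gave 11 lower members (against 5.06% of all genes), again with 0 past the adjusted threshold. The DESeq2 Wald test, which gave an adjusted p to 33 members, called 2 of them, both lower: B2m (adjusted p = 0.00176) and Psmb10 (adjusted p = 0.02). It called 2.07% of all genes given an adjusted p, and 1.04% as lower. For the other 41 members none of the 14 alternative analyses gave a call.

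Most differences were small and negative. Log2 fold changes were negative for 34 of the 43 members, where 47.7% of all genes had negative values, and the median was -0.11 against 0.01 over all genes. In 8 members every stress pool was below every control pool (18.6%, against 8.76% of all genes), namely B2m, H2-T22, Tap2, Psmb8, Psmb9, Psmb10, Psme2 and H2-M6-ps. The gap was narrow for Psmb9, Psme2 and H2-M6-ps. In 1 member, H2-M10.2, every stress pool was above every control pool (against 9.33% of all genes). The median was -0.16 over 19 class I genes, -0.12 over 11 processing genes and -0.03 over 9 class II genes. Single pools carried much of this: the class I median was -0.02 without control pool 3 and -0.04 without stress pool 1, and the median of all members was -0.07 and -0.04. With stress pool 1 left out, 27 of the 43 members had negative values and the class II median was 0.04. The class I genes summed to 558, 617 and 631 CPM in control pools and to 524, 556 and 573 CPM in stress pools. The processing genes summed to 959, 913 and 903 CPM and then to 883, 906 and 914 CPM. Both sums overlapped between the groups, with ratios of stress to control means of 0.916 for class I and 0.975 for processing genes.

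**Figure D1:**
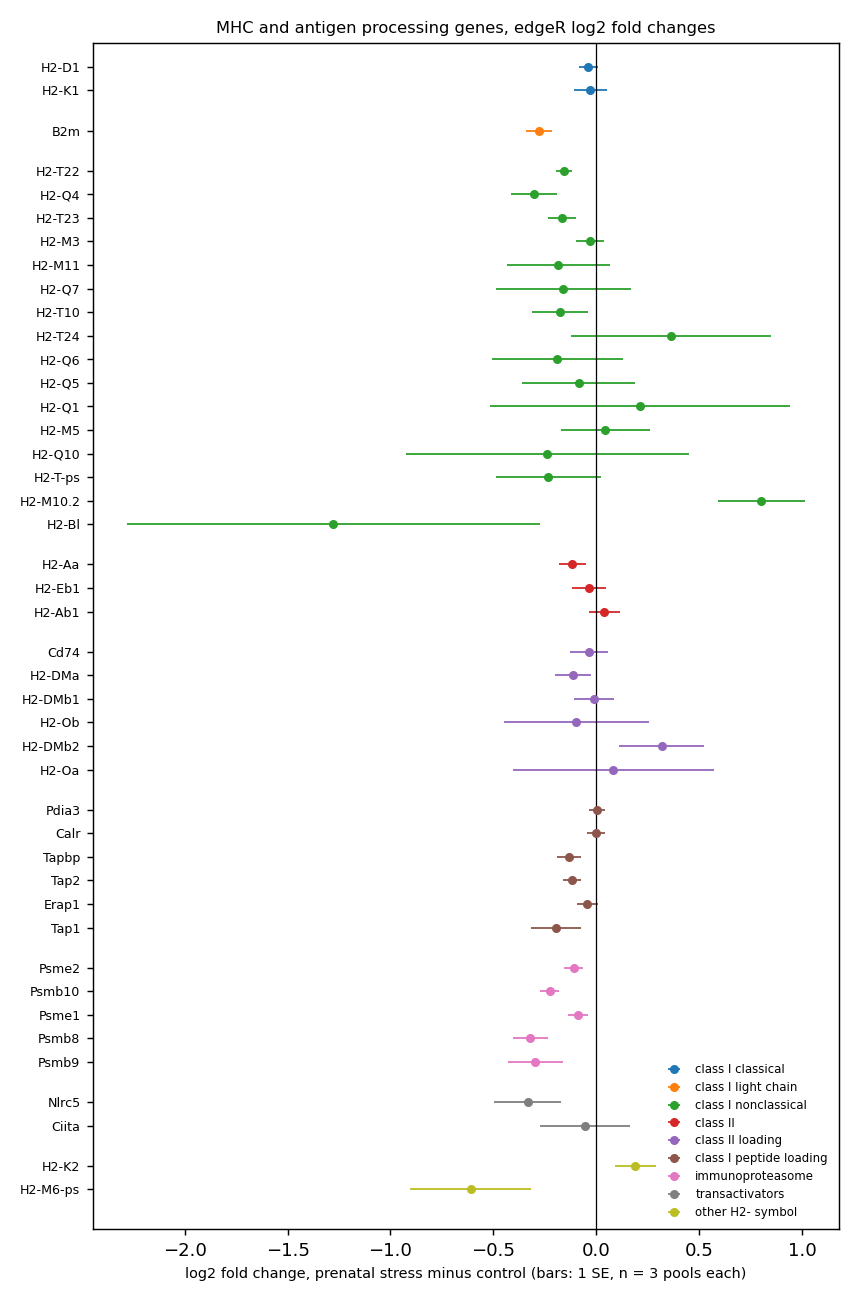
Log2 fold change of the 43 members (horizontal axis, prenatal stress minus control, edgeR) by functional group, with bars of 1 SE over 3 pools per group. Heavy chains H2-D1 and H2-K1 lie near 0, B2m and all 5 immunoproteasome genes lie below 0, and the low-count genes H2-Bl, H2-Q1 and H2-Q10 have the widest bars.

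The groups overlapped for the classical heavy chains and did not for their light chain. H2-D1 stood at 202, 215 and 221 CPM in control pools 1 to 3 and at 197, 212 and 211 CPM in stress pools 1 to 3. H2-K1 stood at 91.4, 101 and 110 CPM in control pools and at 92.3, 97.6 and 107 CPM in stress pools. For both genes the groups overlapped and pool 1 was the lowest of its group. The log2 fold changes were -0.04 ± 0.05 (SE) for H2-D1 and -0.03 ± 0.08 for H2-K1 (edgeR adjusted p = 0.81 and 0.93).

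B2m, the light chain that class I heavy chains need to fold and reach the surface, stood at 168, 196 and 192 CPM in control pools and at 146, 154 and 159 CPM in stress pools. All 3 stress pools were below the lowest control pool. The means were 185 ± 15.4 and 153 ± 6.43 CPM (SD, n = 3 pools each), a ratio of 0.825. The log2 fold change was -0.28 ± 0.06 (edgeR adjusted p = 0.272, and 0.00176 to 0.634 over its 14 alternatives). Its sign was negative in each of them, from -0.34 to -0.24.
Set against the summed level of H2-K1 and H2-D1 in the same pool, a ratio that no library scaling can change, B2m stood at 0.571, 0.621 and 0.58 in control pools and at 0.504, 0.496 and 0.498 in stress pools. The stress values were nearly equal to each other and all below the control values. This ratio was given no test, because the genes were picked with results in view.

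**Figure D2:**
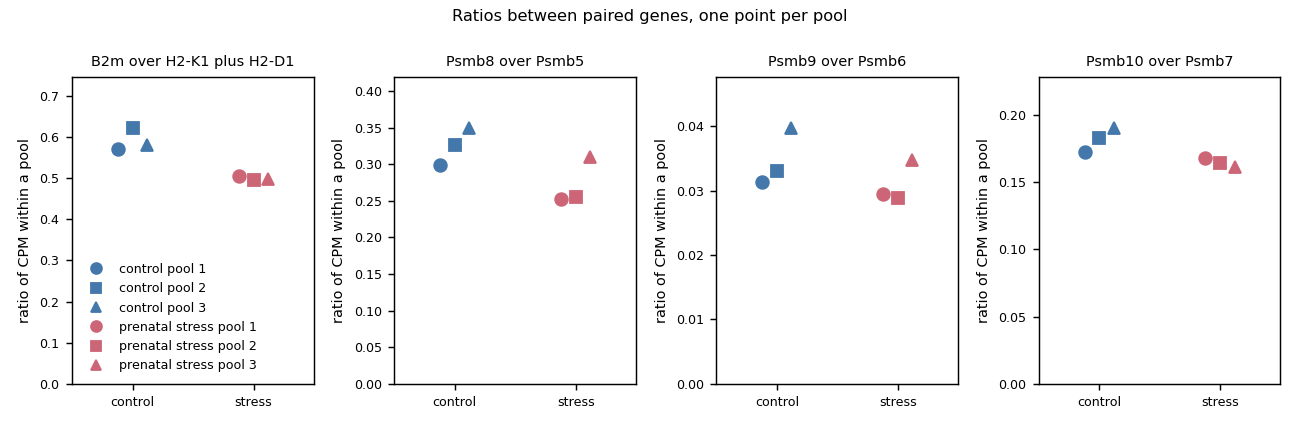
Ratio of CPM between paired genes within each pool (vertical axes start at 0), with 1 point per pool for 3 control and 3 prenatal stress pools. B2m over H2-K1 plus H2-D1 is 0.571 to 0.621 in control and 0.496 to 0.504 in stress pools, and only Psmb10 over Psmb7 also separates the groups among the other 3 pairs.

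Nonclassical class I genes have narrower tissue ranges, and many present special ligands or serve as ligands of natural killer and innate-like T cells. The 16 taken here include the pseudogene H2-T-ps and the polymorphic pseudogenes H2-Bl, H2-Q5 and H2-T10. On balance the 16 were lower: 12 had negative values (against 47.7% of all genes), these pseudogenes among them. Their summed level was 97.1, 105 and 108 CPM in control pools and 88.6, 92.3 and 96.2 CPM in stress pools. The stress pools lay below the control pools, narrowly so for stress pool 3. None of the 16 passed the test.
H2-T22, recognised by gamma-delta T cells, stood at 35.1, 36.2 and 35.3 CPM in control pools and at 32.8, 32.2 and 30.6 CPM in stress pools. Control pools differed little from each other, and the groups did not overlap (-0.16 ± 0.04, edgeR adjusted p = 0.29). Of 100-base windows of its longest transcript, 38.1% also occur in transcripts of other genes, mostly of A930015D03Rik on the opposite strand, so its reads could be shared if strand was ignored in counting.
H2-T23 encodes Qa-1, the ligand of the inhibitory receptor of natural killer cells. It stood at 19.6, 18.6 and 19.4 CPM in control pools and at 16.3, 16.4 and 18.8 CPM in stress pools (-0.16 ± 0.07, edgeR adjusted p = 0.442). Stress pool 3 was within the control range.
H2-Q4 stood at 20.4, 26.3 and 27.8 CPM in control pools and at 19, 20.9 and 20.5 CPM in stress pools (-0.30 ± 0.11, edgeR adjusted p = 0.402). Control pool 1 lay within the stress range. H2-M3, which presents formylated bacterial and mitochondrial peptides, overlapped, at 9.04 to 9.92 CPM in control and 9.02 to 9.71 CPM in stress pools (-0.03 ± 0.07).

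Among sparse nonclassical genes, H2-Q6 and H2-Q7 varied more between the pools of a group than between the groups. H2-Q6 stood at 0.922, 1.28 and 2.03 CPM in control pools and at 0.904, 1.35 and 1.49 CPM in stress pools. H2-Q7 followed the same order within each group, with 1.27, 1.77 and 2.58 CPM and then 1.11, 1.7 and 2.27 CPM. Of 100-base windows, 13% of those of H2-Q6 and 13.5% of those of H2-Q7 also occur in transcripts of other genes, so some reads of these near copies cannot be placed.
H2-T24 reached 3.74 CPM in stress pool 3, against 0.878 to 1.78 CPM in the other 5 pools. H2-Q1 stood at 2.45, 0.678 and 0.241 CPM in control pools and at 1.73, 0.804 and 1.34 CPM in stress pools. The range among controls alone was wider than any difference between groups (0.21 ± 0.73). H2-Q10, known as a secreted protein of the liver, was between 0.0775 and 0.929 CPM.
H2-M10.2, of a family known from the vomeronasal organ, was the one member above in all stress pools, at 0.332, 0.308 and 0.241 CPM in control pools and 0.465, 0.546 and 0.523 CPM in stress pools. These levels rest on 20 to 36 counts a pool (0.80 ± 0.21, edgeR adjusted p = 0.297). H2-M5, H2-M11, H2-Q5, H2-T10, H2-T-ps and H2-Bl completed the group, with log2 fold changes from -1.28 to 0.04 and SEs from 0.14 to 1.00.

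**Figure D3:**
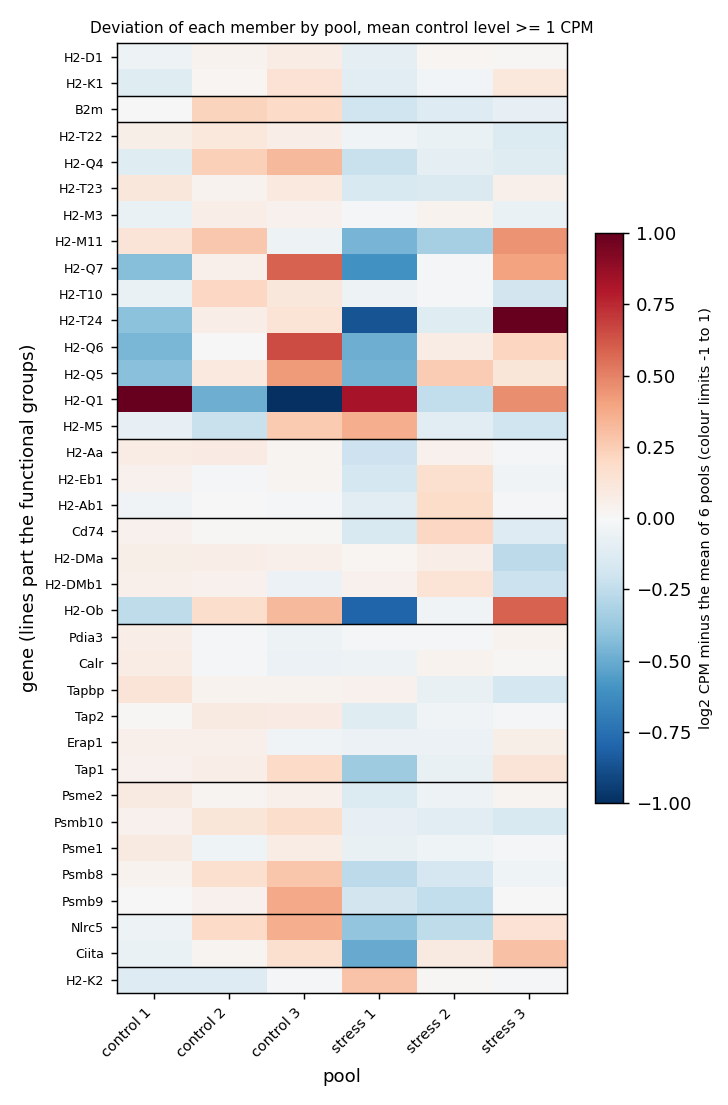
Deviation of each member's log2 CPM from its mean over the 6 pools (colour, limits -1 to 1), with pools in columns and genes of at least 1 CPM in control pools in rows, parted by functional group. Stress pool 1 is blue in most rows, and H2-Q6, H2-Q7, H2-T24 and H2-Ob share red in control pool 3 or stress pool 3 and blue in stress pool 1.

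Immunoproteasome genes were lower in stress pools as a group, but none passed the test. Values were negative for 5 of 5 (against 47.7% of all genes). For 4 of 5 every stress pool was below every control pool (against 8.76% of all genes), by little for Psmb9 and Psme2. Psmb8, Psmb9 and Psmb10 are the interferon-induced catalytic subunits that replace Psmb5, Psmb6 and Psmb7 and shift cutting toward peptides that fit class I. Their summed level with the activator subunits Psme1 and Psme2 was 118, 116 and 122 CPM in control pools and 103, 106 and 110 CPM in stress pools. The lowest control pool was above the highest stress pool.
Psmb8 stood at 12.3, 13.4 and 14.6 CPM in control pools and at 10, 10.7 and 11.6 CPM in stress pools (-0.32 ± 0.09, edgeR adjusted p = 0.298). Psmb9 stood at 4.14, 4.25 and 5.36 CPM and then at 3.62, 3.47 and 4.13 CPM (-0.30 ± 0.13, edgeR adjusted p = 0.468). For Psmb9 the groups differed by little, with control pool 1 just above stress pool 3.
Psmb10 stood at 27.6, 29.1 and 30.2 CPM in control pools and at 25.3, 24.8 and 24.1 CPM in stress pools. It had the smallest p of all members (-0.23 ± 0.05, edgeR adjusted p = 0.234, and 0.02 to 0.634 over its 14 alternatives). The activator subunit Psme2 was at 44.1 to 46.1 CPM in control and 39.5 to 44.1 CPM in stress pools (-0.11 ± 0.05). Its groups almost touched, with control pool 2 at 44.104 CPM and stress pool 3 at 44.097 CPM. For Psme2, 44.5% of 100-base windows also occur in its copy Psme2b. Psme1 was at 25.1 to 27.6 and 24.5 to 25.7 CPM (-0.09 ± 0.05).

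Genes of the standard proteasome had mostly negative values too. Of 16 proteasome genes outside the interferon-induced set, 14 had negative values (against 47.7% of all genes). In 12 every stress pool was below every control pool (against 8.76% of all genes). The median log2 fold change was -0.08, and none passed the test. Psmb6 stood at 128 to 135 CPM in control and 119 to 123 CPM in stress pools (-0.13 ± 0.03, edgeR adjusted p = 0.29), and Psma5 at 129 to 131 and 117 to 121 CPM (-0.13 ± 0.03, adjusted p = 0.267). Psmb4 was above in every stress pool, at 114 to 126 and 136 to 138 CPM (0.18 ± 0.04, adjusted p = 0.265).
Within a pool, Psmb10 over Psmb7 was 0.172, 0.183 and 0.19 in controls and 0.168, 0.164 and 0.161 in stress pools, without overlap. Psmb8 over Psmb5 was 0.299 to 0.349 and 0.253 to 0.31, and Psmb9 over Psmb6 was 0.0313 to 0.0397 and 0.0288 to 0.0348. Both of these overlapped, with stress pool 3 inside the control range.

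**Figure D4:**
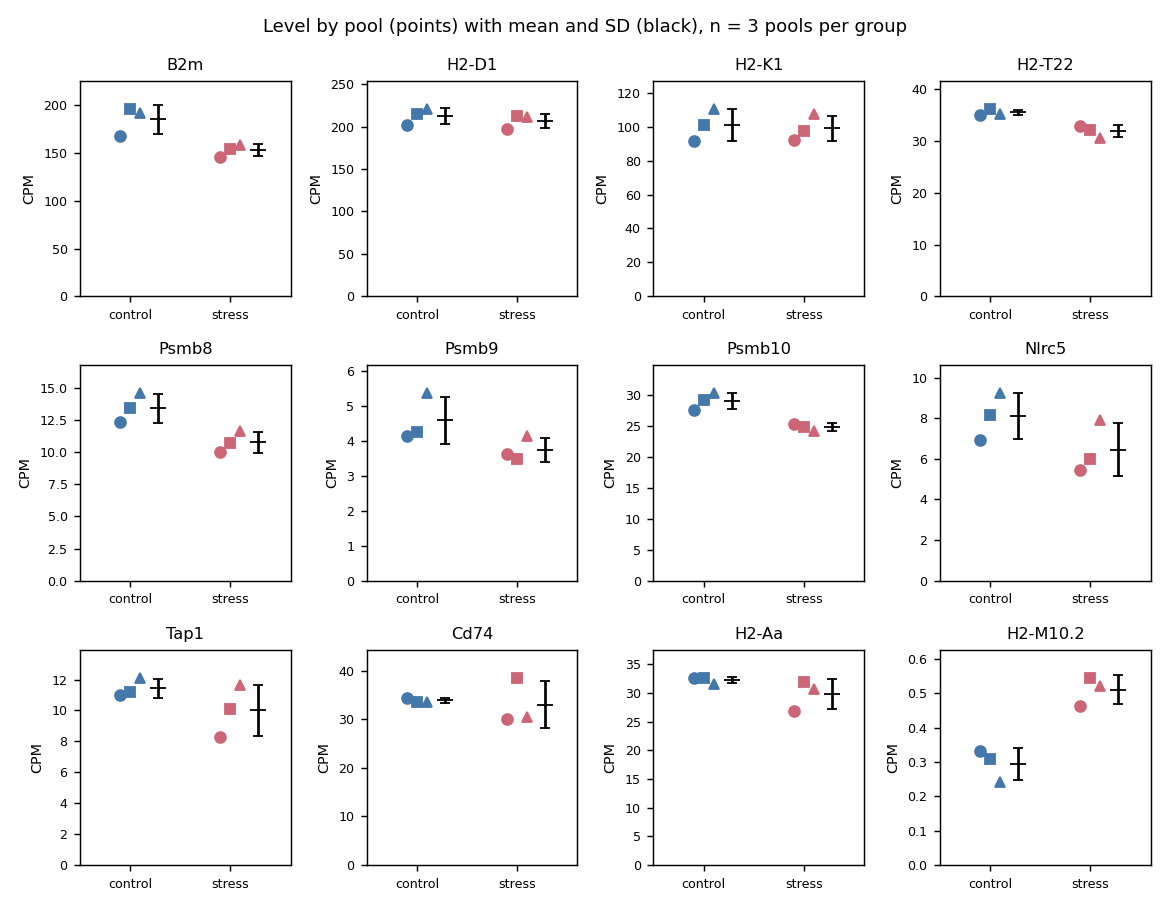
Level of 12 members in CPM (vertical axes start at 0) in each pool, with circles, squares and triangles for pools 1, 2 and 3 of each group (control in blue, prenatal stress in red) and black marks for the mean and SD over 3 pools. B2m, H2-T22, Psmb8, Psmb9 and Psmb10 are lower in every stress pool, H2-M10.2 is higher, and the groups overlap for H2-D1, H2-K1, Nlrc5, Tap1, Cd74 and H2-Aa.

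Of the 6 genes of peptide transport and loading, none passed the test and 5 had negative values. The folding factors Calr and Pdia3, which serve many glycoproteins of the endoplasmic reticulum, overlapped between the groups. Calr was at 313 to 342 CPM in control and 314 to 333 CPM in stress pools (-0.00 ± 0.04). Pdia3 was at 320 to 347 and 327 to 340 CPM (0.00 ± 0.04).
The transporter subunits and tapasin had negative values, and of these Tap2 alone did not overlap. Tap2 stood at 32.9, 34.7 and 34.6 CPM in control pools and at 30.1, 31.9 and 32.3 CPM in stress pools (-0.12 ± 0.04, edgeR adjusted p = 0.408). Tap1 stood at 11, 11.2 and 12.1 CPM and then at 8.29, 10.1 and 11.6 CPM (-0.19 ± 0.12, adjusted p = 0.587). Only stress pools 1 and 2 were below the controls for Tap1, and the log2 fold change was -0.08 without stress pool 1 and -0.32 without stress pool 3.
Tapbp stood at 85.5, 80.5 and 80.5 CPM in control pools and at 80.8, 74.6 and 69.6 CPM in stress pools (-0.13 ± 0.06, adjusted p = 0.458). Here stress pool 3 was the lowest and stress pool 1 was inside the control range. The trimming peptidase Erap1 was at 21.1 to 22.3 and 20.7 to 22.4 CPM (-0.04 ± 0.05).
Of 18 other antigen processing genes tested, none passed, 11 had negative values and the median was -0.02. The lowest p was that of Tapbpl, a second peptide editor of class I, at 19.9 to 21.4 CPM in control and 18.3 to 18.4 CPM in stress pools (-0.18 ± 0.05, edgeR adjusted p = 0.29). The lysosomal proteases Ctsl (-0.13 ± 0.04) and Lgmn (-0.11 ± 0.04), which cut antigen and Cd74 for class II, were also below in every stress pool, while the chaperone Canx overlapped (-0.03 ± 0.04).

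Class II genes overlapped between the groups, and their spread lay among the stress pools. The 9 class II genes summed to 145, 144 and 143 CPM in control pools and to 129, 155 and 133 CPM in stress pools. The SD was 1.03 CPM over the control and 13.8 CPM over the stress pools. The 3 control pools were nearly equal, with stress pool 2 above and stress pools 1 and 3 below them.
Cd74, the invariant chain, stood at 34.5, 33.6 and 33.7 CPM in control pools and at 30, 38.6 and 30.6 CPM in stress pools (-0.04 ± 0.09). H2-Aa and H2-Ab1 encode the chains of the I-A molecule. H2-Aa stood at 32.5, 32.7 and 31.6 CPM and then at 26.8, 31.8 and 30.6 CPM (-0.12 ± 0.07, edgeR adjusted p = 0.546). H2-Ab1 stood at 19.3, 19.8 and 19.6 CPM and then at 18.3, 22.4 and 19.6 CPM (0.04 ± 0.08).
H2-Eb1, a chain of the I-E molecule, stood at 27.9, 26.8 and 27.6 CPM and then at 23.9, 30.1 and 26.3 CPM (-0.03 ± 0.08). Its partner gene H2-Ea had 0 counts in every pool, which allows up to 3 counts a pool, or 0.0344 to 0.0581 CPM, for counting error only. The H2b haplotype of C57BL/6 mice is known not to transcribe that gene. Cd74 set against the sum of H2-Aa, H2-Ab1 and H2-Eb1 was 0.424 to 0.433 in control and 0.399 to 0.458 in stress pools.
Of the peptide exchange factors, H2-DMa was at 19.1 to 19.3 CPM in control pools and at 18.7, 19.3 and 15.3 CPM in stress pools (-0.11 ± 0.09), with stress pool 3 alone below. H2-DMb1 was at 9.14 to 9.84 and 8.21 to 10.5 CPM (-0.01 ± 0.10). H2-DMb2, H2-Oa and H2-Ob, the last of these known mainly from B cells, were near or below 1 CPM, with log2 fold changes of 0.32 ± 0.21, 0.08 ± 0.49 and -0.10 ± 0.35.
Macrophage markers, a set of 13 with none at 0 counts, summed to 115 to 125 CPM in control pools and to 97.2, 126 and 126 CPM in stress pools. Stress pool 1 was the lowest for both the macrophage markers and the class II sum. In whole ganglia, fewer cells of a type and less RNA per cell cannot be told apart.

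The class I transactivator Nlrc5 stood at 6.93, 8.16 and 9.22 CPM in control pools and at 5.45, 5.99 and 7.92 CPM in stress pools. Its groups overlapped through stress pool 3 (-0.33 ± 0.16, edgeR adjusted p = 0.494), and in both groups pool 1 was lowest and pool 3 highest. With the replicate number as a block the value was -0.34 (adjusted p = 0.28). Ciita, the class II transactivator, stood at 1.43, 1.53 and 1.68 CPM and then at 1.05, 1.59 and 1.84 CPM (-0.06 ± 0.22).
Of 20 other regulators of MHC genes, none passed, 10 had negative values and the median was -0.00. The interferon response factor Irf1 was at 21.9 to 22.3 CPM in control and 19.9 to 20.8 CPM in stress pools, below in every stress pool (-0.12 ± 0.04, edgeR adjusted p = 0.397). The interferon receptor chain Ifnar1 was above in every stress pool (0.09 ± 0.03, adjusted p = 0.434).
Of 26 interferon-induced genes, 24 had negative values (against 47.7% of all genes), with a median of -0.25. At an unadjusted edgeR p under 0.05, 10 were lower (against 5.11% of all genes), and none passed the test. Their summed level was 475, 502 and 541 CPM in control pools and 397, 399 and 493 CPM in stress pools. Stress pool 3 was inside the control range, as it was for Nlrc5, Tap1 and H2-T23. The guanosine triphosphatase Igtp stood at 21.6 to 26.3 and 18.9 to 21.2 CPM (-0.31 ± 0.09, adjusted p = 0.311).
Among MHC-like genes outside the H2 region, Cd1d1, which presents lipids to natural killer T cells, stood at 5.4, 5.53 and 6.08 CPM in control pools and at 4.4, 4.7 and 4.43 CPM in stress pools (-0.33 ± 0.09, edgeR adjusted p = 0.297). The other 7 tested had log2 fold changes from -0.68 to 0.05, and none of the 8 passed.

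Stress pool 1 was the lowest of the 6 pools for 23 of the 43 members (53.5%), where it was the lowest for 14% of all genes. Control pool 3 was the highest for 12 members (27.9%, against 12.3% of all genes). Summed markers of neutrophils and marrow, B cells, T and NK cells and macrophages were also lowest in stress pool 1, and those of dendritic cells were not. Control pool 3 was the highest for none of these lists. Neutrophil and marrow markers (8 genes, none at 0 counts) summed to 139, 181 and 301 CPM in control pools and to 44.6, 218 and 410 CPM in stress pools. B cell markers (6 genes) summed to 39.9, 37.8 and 46.7 CPM and to 29.7, 45.8 and 50.5 CPM. H2-Q6 (narrowly), H2-Q7, H2-T24 and H2-Ob were among the 23 members with their lowest value in stress pool 1, where both of these sums were lowest too. H2-T24 and H2-Ob were highest in stress pool 3, as the 2 sums were, but H2-Q6 and H2-Q7 were highest in control pool 3.
T and NK cell markers (9 genes) were at 4.15 to 4.56 CPM in control and 3.64 to 5.23 CPM in stress pools in sum, and dendritic cell markers (8 genes) at 44.3 to 45.7 and 44.4 to 45.9 CPM. Most of the dendritic sum came from Flt3 and Zbtb46, with control means of 26.4 and 16.1 CPM. Cd209a and Batf3 had 0.68 and 0.38 CPM, so the sum says little about the sparser dendritic markers or about dendritic cell content. Cd209a was above in every stress pool (0.28 ± 0.16, edgeR adjusted p = 0.556), while 4 of the 6 dendritic markers tested had negative values. No gene of these lists passed the test.
Satellite glia markers (6 genes), by contrast, did separate the groups. Their sums were 2546, 2734 and 2556 CPM in control pools and 2375, 2346 and 2249 CPM in stress pools, with 6 of 6 negative and none past the test. Apoe made up most of these sums, with means of 1610 and 1441 CPM. Of the 6 genes, 4 were below in every stress pool (against 8.76% of all genes). Schwann cell markers (6 genes), also 6 of 6 negative, overlapped in sum, at 6914 to 8029 and 6027 to 7959 CPM. Fibroblast markers (5 genes) overlapped too, at 971 to 1333 and 1013 to 1190 CPM. Endothelial markers (7 genes) were at 120 to 129 and 120 to 127 CPM. The part of immune cell content, satellite glia content or interferon-induced genes in the lower members was not tested. Sensory neuron markers, which define the tissue, summed to 6113 to 6489 CPM in control and 6141 to 6247 CPM in stress pools. Of these 8 genes 5 had positive values, and Tubb3 was below in every stress pool (-0.18 ± 0.05, edgeR adjusted p = 0.297).

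**Figure D5:**
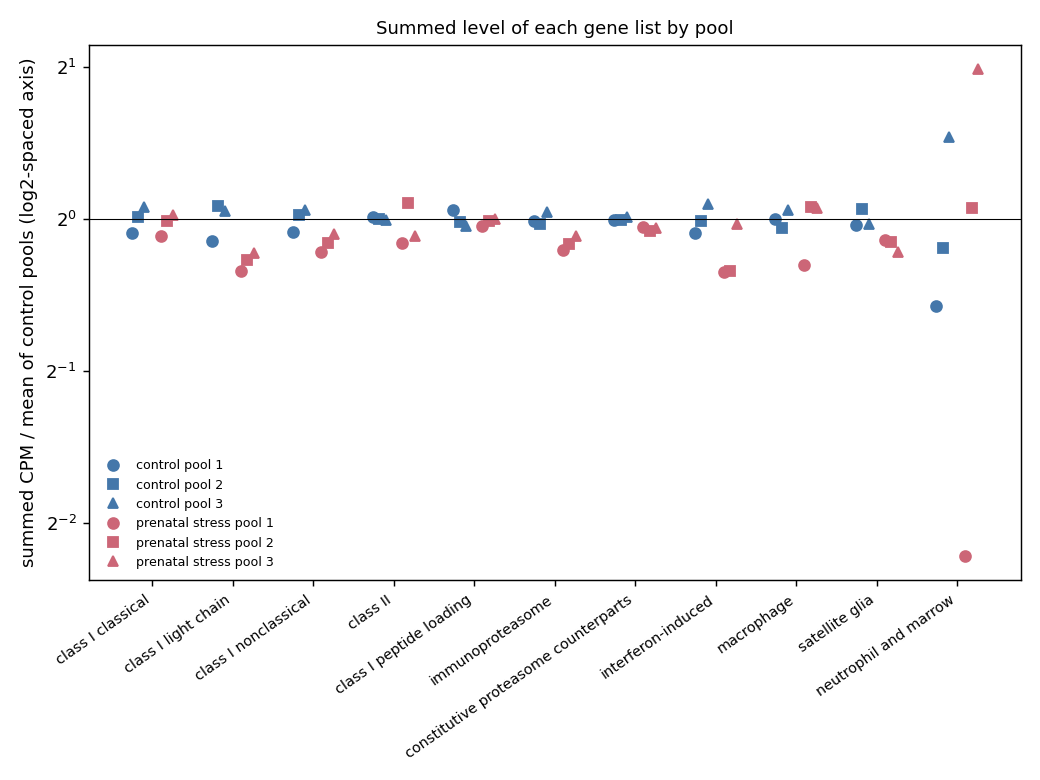
Summed CPM of each gene list divided by its mean over the control pools (vertical axis, log2-spaced), with 1 point per pool. B2m (class I light chain), the nonclassical class I genes, the immunoproteasome, its constitutive counterparts and satellite glia markers lie below the controls in all 3 stress pools, while classical class I, class II and macrophage lists overlap and neutrophil and marrow markers range from 44.6 CPM in stress pool 1 to 410 CPM in stress pool 3.

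Compared per kilobase of longest annotated transcript, B2m was the most abundant member in control pools at 215 CPM per kb, followed by Calr at 149, Pdia3 at 119.5 and H2-D1 at 101 CPM per kb. H2-K1 stood at 53.9 and Psme2 at 46.8 CPM per kb. Of class II genes, Cd74 led with 24.1 CPM per kb, ahead of H2-Eb1 at 16.4 and H2-Ab1 at 16.1 CPM per kb. Among catalytic subunits Psmb10 was at 22.1, Psmb8 at 7.05 and Psmb9 at 1.59 CPM per kb. The longest transcript may not be the one in use, so this order is approximate.

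The rule also took symbols of pseudogenes. H2-T-ps, H2-Bl, H2-Q5 and H2-T10, annotated as pseudogenes or polymorphic pseudogenes, were counted with the nonclassical genes above. H2-K2, annotated as a transcribed pseudogene, stood at 6.17 to 6.67 CPM in control and 6.66 to 8.21 CPM in stress pools (0.19 ± 0.10), and its highest pool was stress pool 1. The pseudogene H2-M6-ps rested on 7 to 27 counts a pool (-0.61 ± 0.30). A further 17 symbols fell short of 10 counts in 3 pools and were not used in any comparison. They were H2-Ea, H2-Eb2, H2-Ke6, H2-M1, H2-M10.1, H2-M10.3, H2-M10.4, H2-M10.5, H2-M10.5-ps1, H2-M10.6, H2-M2, H2-M9, H2-Pa, H2-Pb, H2-Q2, H2-Q3 and H2-T3. Just inside the threshold were H2-Bl, with 0 to 17 counts a pool, and H2-Oa, with 7 to 19, and just outside were H2-M1, with 3 to 15, and H2-Q2, with 2 to 12.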

How the data were processed

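Poly-A selected, stranded, paired-end libraries of dorsal root ganglia were sequenced, 1 per pool of 3 mice. The deposited values are raw counts of reads per gene symbol. FastQC, STAR 2.4 and HTSeq 0.9.1, with the builds GRCm39 and mm10, are named in the submitters' processing notes. Which build and strand setting made these counts is not given in the sources used here. Reads that HTSeq gave to no gene, 15.3% to 16.2% of a file, were left out. HTSeq's summary rows include 7.05% to 7.7% of reads with more than 1 alignment, which near-identical H2 genes can lose.

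Counts were tested with edgeR 4.0.16 (R 4.3.3): scaling by TMM, a low-count filter (filterByExpr, min.count 10) and glmQLFTest, with Benjamini-Hochberg adjustment over 20146 genes and a threshold of 0.05. The SE is the log2 fold change divided by the square root of F. CPM use the TMM factors. Alternatives were RLE factors, library size only, no filter, a robust spread, DESeq2 1.42.0, the replicate block, offsets for GC content and length (GENCODE M21), and each pool left out. Counts of unadjusted p and of non-overlap under these were added after seeing the data. The code was tested on simulated data. Every member may be named. Of other lists, genes past the test or among the 3 smallest p may be named. Canx, Psmb5, Psmb7, Zbtb46 and Apoe were named after their values were seen. Members and lists were chosen with earlier results of these data known. Pools carry a replicate number, 1 to 3, within each group. Deviations of same-numbered pools correlated at 0.34, 0.22 and 0.13 across genes. Control pool 3 correlated with stress pool 2 at 0.12, so these values do not settle whether the pools numbered 3 form a pair. The main test ignored the numbers, and only alternatives with the replicate block took them as pairs.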

Additional observations from a re-analysis of the deposited data

How the results depend on the processing

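Over 14 alternatives and 43 members, 590 of 592 results with an adjusted p stayed on the same side of the threshold. The 2 that did not were B2m (log2 fold change -0.28) and Psmb10 (-0.23) under DESeq2, so that the count of members called lower was 2 there, where 10 members had no adjusted p, and 0 elsewhere, with 0 called higher under any alternative; the cause was not tested. With the replicate block 0 members were called. Leaving out 1 pool at a time moved the median log2 fold change over a range of -0.20 to -0.02 for class I (-0.1962 to -0.016), of -0.14 to -0.08 for processing genes (-0.1432 to -0.0795), of -0.09 to 0.04 for class II and of -0.14 to -0.04 for all members (-0.1446 to -0.0432). The values nearest 0 came without stress pool 1 for processing genes and all members and without control pool 3 for class I, and the class II median was positive only without stress pool 1. Members with an unadjusted p under 0.05 and a lower level numbered 4 without control pool 3 (3.81% of all genes) to 12 without stress pool 3 (4.98%), and 11 with the replicate block (5.06%) or without the low-count filter (3.85%). With 1 pool left out, 8 to 15 members did not overlap and were lower, where 12.5% to 15.8% of all genes did so. With RLE factors and all 6 pools, 7 members did not overlap and were lower (9.48% of all genes), and 2 were higher. Counting error weighs most on the members with fewest counts, such as H2-Bl with 0 to 17 a pool; depth was not varied.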
